A study of Rattus norvegicus with 6 samples.

Results

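The genes described here encode the transforming growth factor beta (TGF-beta), bone morphogenetic protein (BMP) and activin pathway: ligands, the proteins that store or block them, receptors, SMAD signal carriers, and the ID genes that the pathway switches on. They were chosen by gene symbol, 51 symbols in all, and each symbol matched a row among the 40456 genes of the deposited count table. RNA sequencing was done on 6 libraries of wild-type H9c2 (2-1) cells, a rat cardiomyoblast line. In each group the cells had spent 5 days in medium with 1% serum and 1 µM retinoic acid, added daily, to differentiate. They were then transfected for 24 h with 25 nM of an antisense LNA gapmer, a short modified oligonucleotide that lets RNase H cut the RNA it pairs with. A non-targeting negative control LNA went into 3 libraries (control replicates 1 to 3) and an LNA against the long non-coding RNA Tug1 into the other 3 (knockdown replicates 1 to 3). Each arm rests on a single oligonucleotide in a single cell line, and the labels do not say whether replicates were separate cultures, so p-values measure the spread between these libraries, which may be technical.

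In this pathway, secreted ligands are held latent or bound by antagonists until they meet a pair of type II and type I receptor kinases. TGF-beta and activin receptors pass the signal to SMAD2 and SMAD3, BMP receptors to SMAD1, SMAD5 and SMAD9, and both branches use SMAD4. Target genes include feedback inhibitors such as Smad7 and Skil and, on the BMP side, the ID genes, whose products bind and block basic helix-loop-helix factors such as the myogenic regulators. In muscle cells TGF-beta, activin and myostatin are known as brakes on growth and differentiation.

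The oligonucleotides that define the groups are shown first, 5′ to 3′, because every comparison is between cells that received the one or the other.
Tug1 gapmer: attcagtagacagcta
negative control gapmer: gctcccttcaatccaa
Both are 16 bases long. Tug1 itself stood at 54.6, 51.9 and 55.3 CPM (a gene's share of the library, scaled by TMM) in control replicates 1 to 3 and at 11.9, 11.2 and 12.4 CPM in knockdown replicates 1 to 3. All knockdown libraries lay below all control libraries, with a log2 change of -2.19 (SE 0.0786, adjusted p 4.39e-16, edgeR), so the libraries follow their labels.

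Total counts ran from 12978548 to 13544337 per library, and 1 CPM stood for 12.9 to 13.8 counts. The labels call the cells cardiomyocytes, but 4 of 11 cardiac muscle markers, Myh6, Myh7, Nkx2-5 and Ryr2, had at most 3 counts in any library. The 11 together summed to 359 to 390.0 CPM in controls and 418 to 470.1 CPM after knockdown, with 3 of the 4 tested called higher. Most of this cardiac sum was Tnnt2 (mean 348 to 410 CPM, called higher). Another of the 3, Myl2, passed the filter only through the knockdown libraries, where it was high. All 8 skeletal muscle markers passed the expression filter. Their summed level was 769 to 775 CPM in controls and 1130.1 to 1171 CPM after knockdown, with 7 called higher and Myod1 lower. The 7 fibroblast markers summed to 37223 to 38909 CPM in controls and 32287 to 34947 CPM after knockdown, with 1 called higher and 3 lower. Most of that sum was Col1a1 (mean 21657 to 18524 CPM, called lower) and Col1a2 (15113 to 14305 CPM, not called). Dcn was the higher one. The 5 smooth muscle markers summed to 957 to 1050.3 CPM and 1112 to 1268 CPM, with 3 higher and 0 lower. Pecam1, Cdh5, Kdr, Ptprc and Adgre1, markers of endothelial and immune cells, had at most 3 counts in any library. The 5 endothelial markers summed to 3.01 to 4.47 CPM and 2.81 to 3.91 CPM, and the 5 immune markers to 3.29 to 5.49 CPM and 6.73 to 8.79 CPM. Cd68 was the only immune marker that passed the filter and was called higher (log2 change 1.09, SE 0.186). Tek, the only tested endothelial marker, was not called. As background to these marker counts, 61.7% of all tested genes were called, 30.8% higher and 30.9% lower. The part of these marker shifts in the pathway results was not tested, and in bulk RNA fewer cells of a kind and less RNA per cell cannot be told apart.

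Most pathway genes that changed were lower after Tug1 knockdown. Of the 51 members, 45 passed the filter on low counts, and 33 of those were called changed (edgeR adjusted p under 0.05), 7 higher and 26 lower. In this comparison 61.7% of all 14216 tested genes were called, 30.8% higher and 30.9% lower. Of the tested members 73.3% were called, 15.6% higher and 57.8% lower. Their median log2 fold change was -0.30, beside 0.00 over all tested genes. Fstl3 and Nog passed the filter only through the control libraries, where they were high. Among the 43 members that passed through both groups, 7 were higher and 24 lower. The libraries of the groups did not overlap for 35 of the 45, 7 with the knockdown libraries higher and 28 lower, against 65.6% of all tested genes, 33.0% higher and 32.6% lower. Changes of 1 or more on the log2 scale were called for 10 members, beside 9.80% of all tested genes. They were 2 higher members, Ltbp1 and Smad2, beside 4.59% of all tested genes, and 8 lower members, beside 5.21%: Bmp2, Inhba, Fst, Fstl3, Nog, Smad7, Id1 and Id4. Among the 43 members that passed through both groups, changes of this size were 2 higher and 6 lower.

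**Figure D1:**
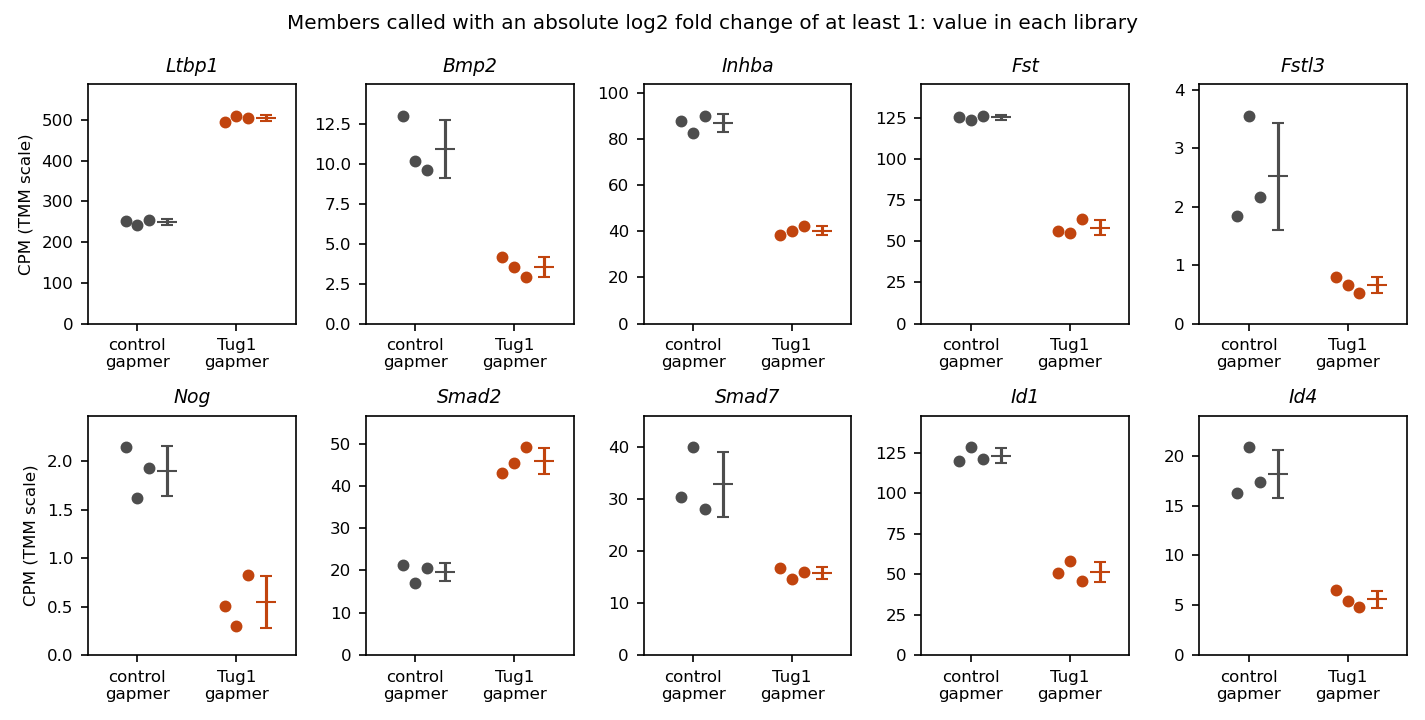
Level in each library of the 10 members called with a change of 1 or more on the log2 scale. The vertical axis is CPM on the TMM scale from 0, points are libraries (3 per group), and the dash with bars is the mean ± SD. The groups do not overlap in any panel, and Ltbp1 and Smad2 are the panels in which the Tug1 gapmer libraries are the higher ones.

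Among the TGF-beta ligands, Tgfb1 fell while the other isoforms were not called. Tgfb1, a broadly expressed isoform, was at 191, 217 and 174 CPM in controls and 121, 151 and 128 CPM after knockdown. The lowest control library was above the highest knockdown library. On the log2 scale the difference was -0.54 (SE 0.0726, adjusted p 9.04e-07, edgeR). Tgfb3 had 279.7, 275 and 299 CPM in controls and 305, 289.7 and 295 CPM after knockdown, and the groups overlapped. Its log2 fold change was 0.06, with a 95% interval from -0.04 to 0.16. Tgfb2 was at 0.10 (interval -0.01 to 0.22, adjusted p 0.11, edgeR). It was called higher when libraries were scaled by their totals (0.16, adjusted p 0.0195, edgeR) and without knockdown replicate 2 (0.17, 0.00902), and was negative with an offset for gene length (-0.09). Tgfb3 also passed with library totals (0.11, 0.0378).

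The latent TGF-beta binding proteins, which tether the inactive ligand complex to the extracellular matrix, moved apart. Ltbp1 was at 252, 242 and 255 CPM in controls and at 496, 510.1 and 505 CPM after knockdown. The replicates were tight in each group and far from each other, a log2 change of 1.01 (SE 0.0433, adjusted p 8.31e-15, edgeR). Ltbp3 went the other way, from 445, 472 and 415 CPM to 248, 278 and 246 CPM, a log2 change of -0.79 (SE 0.0534). Ltbp4 fell by 0.26 on the log2 scale. Ltbp2 had 514, 542 and 495 CPM in controls and 473, 543 and 490.0 CPM after knockdown, overlapped between groups and was not called (-0.04, interval -0.15 to 0.06). Ltbp1 lies over a long stretch of the genome, and its log2 fold change was 0.62 with the offset for gene length. With that offset Ltbp2 was called lower (-0.24, adjusted p 0.000416, edgeR).

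Of the BMP ligands, Bmp2 and Bmp4 were lower. Bmp2, a strong inducer of bone and heart fates, was at 13, 10.2 and 9.62 CPM in controls and 4.20, 3.54 and 2.94 CPM after knockdown. Every knockdown library held less than the lowest control, and the log2 change was -1.62 (SE 0.165, adjusted p 1.42e-08, edgeR). Bmp4 had 64.2, 59.7 and 59.1 CPM in controls and 45.1, 37.5 and 39.6 CPM after knockdown, again with no overlap (-0.58, SE 0.0694, adjusted p 1.58e-07, edgeR). Bmp6, with 8, 4 and 7 counts in controls and 2, 9 and 12 after knockdown, did not pass the filter. Bmp7 had 0 counts in all 6 libraries, where the limit of 3 counts corresponded to 0.217 to 0.232 CPM.

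The activin and myostatin ligands were led by Inhba, which encodes the subunit of activin A. Inhba was at 87.9, 82.7 and 90.3 CPM in controls and 38.4, 40.0 and 42.4 CPM after knockdown. The groups were well apart, at a log2 change of -1.11 (SE 0.0609, adjusted p 5.29e-13, edgeR). Gdf11, a close relative of myostatin, had 172, 175 and 185 CPM in controls and 171, 177 and 161 CPM after knockdown. It overlapped between groups and was not called (-0.06, interval -0.17 to 0.04). The sign of that small value turned with the offset for gene length, where it was 0.0001. Mstn, myostatin itself, had 13, 9 and 11 counts in controls and 8, 7 and 7 after knockdown and did not pass the filter. Inhbb had at most 1 count in any library.

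Of 6 type I receptors, the kinases that phosphorylate SMADs, 5 were tested and 2 fell, Bmpr1b and Acvr1b. That is 40.0% called, beside 61.7% of all tested genes. Bmpr1b, a BMP receptor, was at 3.83, 4.48 and 3.93 CPM in controls and 1.66, 2.22 and 3.32 CPM after knockdown. The knockdown libraries differed among themselves by more than the controls did, yet all stayed below the controls (-0.77, SE 0.230, adjusted p 0.00590, edgeR). Acvr1b, the activin receptor ALK4, fell by 0.39 on the log2 scale (SE 0.0790). Bmpr1a had 112, 113 and 109 CPM in controls and 107, 101 and 106 CPM after knockdown. All knockdown libraries were lower, but the difference did not pass the threshold (-0.09, interval -0.19 to 0.02). Acvr1 was at -0.13 (interval -0.28 to 0.02) and Tgfbr1, the TGF-beta type I receptor, at 0.02 (interval -0.12 to 0.16). With the length offset Bmpr1a (-0.17) and Acvr1 (-0.35) were called lower, and Tgfbr1 was at -0.09 without a call. Tgfbr1 was also negative without control replicate 2 (-0.03) and without knockdown replicate 3 (-0.03). Acvrl1, known from endothelium, had at most 2 counts in any library.

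All 4 type II receptors were called, 3 lower and Bmpr2 higher, while 61.7% of all tested genes were called, 30.8% higher and 30.9% lower. Tgfbr2, which binds TGF-beta first and recruits the type I kinase, was at 198, 209 and 209 CPM in controls and 165, 159 and 159.8 CPM after knockdown. The groups did not overlap, and the log2 change was -0.35 (SE 0.0470, adjusted p 1.01e-06, edgeR). Acvr2b, an activin and myostatin receptor, had 10.9, 11.9 and 10.2 CPM in controls and 7.09, 7.16 and 6.71 CPM after knockdown (-0.65, SE 0.126, adjusted p 9.93e-05, edgeR). Its relative Acvr2a was at -0.24 (SE 0.0928, adjusted p 0.0284, edgeR), a call that rests on single libraries. It was lost without control replicate 1 (-0.21, 0.107), without knockdown replicate 1 (-0.13, 0.228), with library totals (-0.19, 0.0834) and with DESeq2's Wald test (-0.24, 0.0620). Bmpr2, the BMP type II receptor, rose from 116, 109 and 122 CPM to 148, 154 and 163 CPM. This was a log2 change of 0.43 (SE 0.0543, adjusted p 4.09e-07, edgeR), or 0.21 with the length offset.

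The co-receptors and the decoy receptor were all called, beside 61.7% of all tested genes. Eng, endoglin, a co-receptor for TGF-beta and BMP9, fell from 120.2, 129.8 and 121 CPM to 91.3, 96.5 and 97.7 CPM (-0.38, SE 0.0534, adjusted p 2.10e-06, edgeR). Bambi, a receptor-like protein without a kinase that dampens signalling, fell from 33.5, 34.6 and 34.3 CPM to 21.6, 22.8 and 20.1 CPM (-0.67, SE 0.0771, adjusted p 1.00e-07, edgeR). For both genes the groups were apart, with little spread among the controls of Bambi. Tgfbr3, betaglycan, which presents TGF-beta2 to its receptors, rose by 0.35 on the log2 scale (SE 0.0770), and its groups did not overlap either. The call for Tgfbr3 was lost with the length offset (0.06, adjusted p 0.490, edgeR).

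Of 6 secreted antagonists, which bind ligands and keep them from the receptors, 5 were tested, 4 fell and Chrd was not called. That is 80.0% lower, beside 30.9% of all tested genes. This share counts Fstl3 and Nog, which passed the filter only through the control libraries, where they were high. Fst, Fstl1 and Chrd passed through both groups. Fst, follistatin, which traps activin and myostatin, was at 126, 124 and 126 CPM in controls and 56.3, 55.2 and 63.6 CPM after knockdown. The controls varied little and no library overlapped, at a log2 change of -1.10 (SE 0.0583, adjusted p 2.97e-13, edgeR). Fstl3, a follistatin relative with the same kind of targets, had 24, 46 and 28 counts in controls and 11, 9 and 7 after knockdown (-1.91, SE 0.338, adjusted p 3.87e-05, edgeR). Nog, noggin, which blocks BMP2 and BMP4, had 28, 21 and 25 counts in controls and 7, 4 and 11 after knockdown (-1.79, SE 0.357, adjusted p 0.000150, edgeR). The counts of these last genes are small, so their fold changes carry wide 95% intervals, from -2.61 to -1.20 for Fstl3 and from -2.53 to -1.05 for Nog. Fstl1, a secreted glycoprotein of the follistatin family, was at 1018.1, 1006 and 1079 CPM in controls and 749, 729 and 798 CPM after knockdown (-0.45, SE 0.0446, adjusted p 9.85e-09, edgeR). Chrd, chordin, was at -0.015 on the log2 scale (interval -0.19 to 0.16), a sign that turned with library totals and with the length offset. Grem1 had at most 3 counts in any library.

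**Figure D2:**
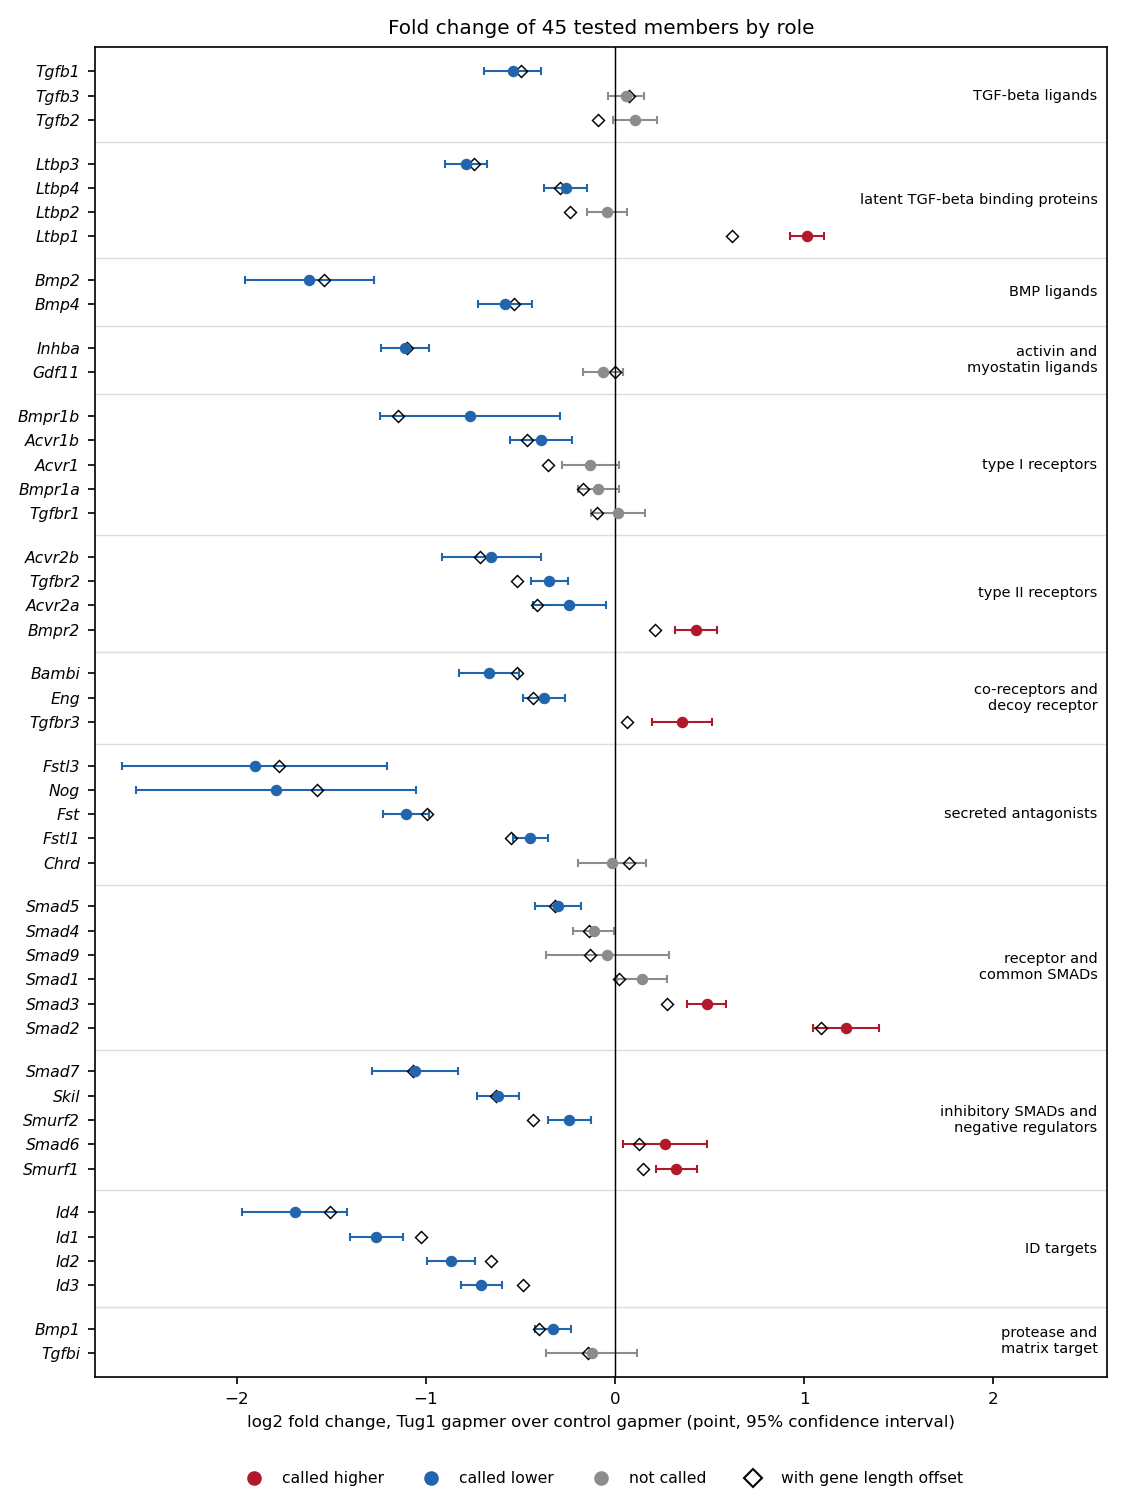
Log2 fold change of each tested member, Tug1 gapmer over control gapmer, grouped by role. Filled points and bars are the fit reported in the text with its 95% confidence interval, and open diamonds are the value with an offset for gene length. The ID genes and most antagonists lie left of 0, while Smad2 and Ltbp1 lie furthest right, and the diamond of Tgfbr3 sits close to 0.

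Of the 6 receptor and common SMAD genes, 2 rose, 1 fell and 3 were not called. That is 50.0% called, beside 61.7% of all tested genes. Smad2 and Smad3, which carry TGF-beta and activin signals, were the higher ones, and Smad5, of the BMP branch, was the lower one. Smad2 was at 21.2, 17.1 and 20.6 CPM in controls and 43.0, 45.3 and 49.2 CPM after knockdown. No library overlapped, and the log2 fold change of 1.22 was the highest of all tested members (SE 0.0844, adjusted p 2.36e-11, edgeR). Smad3 went from 121, 113 and 114 CPM to 159.5, 161 and 167 CPM, a log2 change of 0.48 (SE 0.05, adjusted p 1.64e-08, edgeR) that was 0.28 with the length offset. Smad5 was at -0.30 (SE 0.0587). Smad1 was at 0.14 (interval 0.01 to 0.27, adjusted p 0.0560, edgeR) and was called higher with library totals (0.19, 0.0112). Smad4, the shared partner, was at -0.11 (interval -0.22 to -0.0039, adjusted p 0.0676, edgeR). It was called lower with the length offset (-0.14, 0.0230) and without control replicate 2 (-0.14, 0.0466). Smad9 had a wide interval, from -0.37 to 0.29 around -0.04, and its sign turned with library totals, without control replicate 2 and without knockdown replicate 2. Whether the fold changes of the branches differ from each other was not tested.

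Feedback inhibitors and negative regulators did not share a direction. Smad7, which blocks type I receptors and is itself a SMAD target, was at 30.4, 40.0 and 28.0 CPM in controls and 16.8, 14.6 and 15.9 CPM after knockdown. Control replicate 2 stood above the other controls, and all controls stood above the knockdown libraries (-1.05, SE 0.11, adjusted p 1.91e-08, edgeR). Skil, which encodes the SMAD repressor SnoN, fell from 159, 168 and 173 CPM to 103, 114 and 109 CPM (-0.62, SE 0.0531, adjusted p 8.29e-10, edgeR). Smurf2, a ubiquitin ligase for SMADs and receptors, fell by 0.24 on the log2 scale, and its paralog Smurf1 rose by 0.32. With the length offset those values were -0.43 and 0.15, and both stayed called. Smad6, the inhibitor of the BMP branch, had 18.8, 17.2 and 15.2 CPM in controls and 24.0, 19.4 and 17.9 CPM after knockdown. Its groups overlapped, and its call as higher (0.26, SE 0.108, adjusted p 0.0381, edgeR) rests on few libraries. It was lost without control replicate 2 (0.26, 0.0841), without control replicate 3 (0.19, 0.179), without knockdown replicate 1 (0.13, 0.315), with the length offset (0.13, 0.320) and with DESeq2's Wald test (0.26, 0.0836).

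All 4 ID genes fell, in every library of the knockdown group against every control. Of all tested genes, 30.9% were called lower, and 32.6% had all knockdown libraries below all controls. Id1, the classic immediate target of BMP receptors, was at 119.99, 128 and 121 CPM in controls and 50.4, 58.0 and 45.8 CPM after knockdown, 41.7% of the control mean. On the log2 scale this was -1.26 (SE 0.0672, adjusted p 3.41e-13, edgeR). Id2 went from 77.7, 71.3 and 78.8 CPM to 40.7, 41.5 and 43.0 CPM (-0.86, SE 0.0609, adjusted p 3.23e-11, edgeR). Id3 went from 137, 127 and 127 CPM to 78.9, 79.4 and 81.1 CPM (-0.71, SE 0.0530, adjusted p 9.03e-11, edgeR). Id4 had the lowest level relative to control of the 4, from 16.2, 20.9 and 17.4 CPM to 6.51, 5.46 and 4.83 CPM, or 30.8% of the control mean (-1.69, SE 0.133, adjusted p 2.02e-10, edgeR). The ID genes are among the shortest tested genes by genomic span, at percentiles 1.33 to 5.20. With the length offset they stayed called, at -1.02, -0.65, -0.49 and -1.50 for Id1 to Id4. Each of them was lower in all 16 alternatives tried.

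The upstream sequences of the ID genes and of Skil are shown because these known SMAD targets fell together. Each is the 250 bases before the annotated start, from RefSeq on the rat assembly GRCr8, 5′ to 3′ on the strand of the gene. Capitals mark matches on either strand to the SMAD3 and SMAD4 box CAGAC, the GC-rich motif of BMP SMADs GGCGCC, the palindromic SMAD element GTCTAGAC or the TATA motif TATAAA.
Id1 (chr3:161671314-161671563, plus strand): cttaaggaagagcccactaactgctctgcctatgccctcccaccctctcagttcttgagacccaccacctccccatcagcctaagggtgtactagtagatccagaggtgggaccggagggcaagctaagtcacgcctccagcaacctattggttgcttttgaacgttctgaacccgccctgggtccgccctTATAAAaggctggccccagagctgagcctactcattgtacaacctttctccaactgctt
Id2 (chr6:47470996-47471245, minus strand): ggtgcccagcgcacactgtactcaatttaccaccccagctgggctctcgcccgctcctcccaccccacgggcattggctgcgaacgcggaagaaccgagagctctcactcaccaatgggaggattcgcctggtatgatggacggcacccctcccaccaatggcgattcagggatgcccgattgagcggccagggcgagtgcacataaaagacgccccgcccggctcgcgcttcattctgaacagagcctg
Id3 (chr5:153656041-153656290, plus strand): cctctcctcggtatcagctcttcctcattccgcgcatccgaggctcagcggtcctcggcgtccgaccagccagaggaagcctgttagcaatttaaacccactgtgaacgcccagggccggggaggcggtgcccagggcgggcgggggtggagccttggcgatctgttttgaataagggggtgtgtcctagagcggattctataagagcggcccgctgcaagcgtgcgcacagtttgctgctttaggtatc
Id4 (chr17:16598294-16598543, minus strand): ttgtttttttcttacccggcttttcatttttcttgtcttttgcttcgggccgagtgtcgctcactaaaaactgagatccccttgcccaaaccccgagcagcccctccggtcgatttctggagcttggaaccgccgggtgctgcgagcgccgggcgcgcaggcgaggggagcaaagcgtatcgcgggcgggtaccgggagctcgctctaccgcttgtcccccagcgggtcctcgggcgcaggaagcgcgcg
Skil (chr2:114203573-114203822, minus strand): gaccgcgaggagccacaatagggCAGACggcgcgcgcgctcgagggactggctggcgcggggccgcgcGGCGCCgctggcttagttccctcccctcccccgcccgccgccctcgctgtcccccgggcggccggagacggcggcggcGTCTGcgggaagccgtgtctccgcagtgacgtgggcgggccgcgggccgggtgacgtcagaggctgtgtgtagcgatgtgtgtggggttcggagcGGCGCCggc
In these windows Id1 held a TATAAA that begins 59 bases before the start, Skil held 2 CAGAC and 2 GGCGCC matches, and Id2, Id3 and Id4 held none of the 4 motifs. The SMAD motifs were thus not in these letters for the ID genes, which says nothing of sites further away. Upstream windows were found for 41 of the 51 members. Those genes had 42 windows, of which 8 held CAGAC and 14 held GGCGCC (in 13 genes), while 42.9% and 8.69% of all 33465 windows of the same length held them. Smad7 and Bambi, which fell, and Smad2, which rose, were among the genes with GGCGCC, and their windows are not shown. GTCTAGAC was in 0 of the 42 member windows and 0.173% of all windows, and TATAAA in 6 of the 42 and 12.9% of all windows. No motif contains another, and CAGAC was counted also as GTCTG.

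The remaining members were Bmp1, a protease that processes collagens and cleaves chordin, and Tgfbi, a matrix protein induced by TGF-beta. Bmp1 fell from 264, 273 and 255 CPM to 212, 214 and 204 CPM, with no overlap (-0.33, SE 0.0460, adjusted p 1.87e-06, edgeR). Tgfbi was not called (-0.12, interval -0.36 to 0.12). For some members another tested gene overlaps the same stretch of GRCr8, and the use of strand in counting is not given in the sources used here. Among them are Acvr1b with LOC103692984 (-0.44, not called), Acvr2a with Orc4 (-0.55) and Fst with LOC120100717 (-0.68), so part of their counts may be shared.

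Genes of the same pathway outside the members were taken from a list of 77 further ligands, co-receptors, matrix and intracellular regulators. Of these, 50 were tested and 37 called, 13 higher and 24 lower, with a median log2 fold change of -0.15. That is 74.0% called, 26.0% higher and 48.0% lower, beside 61.7%, 30.8% and 30.9% of all tested genes. Among the lower genes, Furin, the protease that cuts TGF-beta precursors, was at -0.77 (SE 0.0520), Thbs1, an activator of latent TGF-beta, at -0.71 (SE 0.0483) and Tgif1, a SMAD corepressor, at -0.63 (SE 0.0635). Among the higher genes, Hjv, a BMP co-receptor known from iron control, was at 0.81 (SE 0.0894), Nedd4l, a ubiquitin ligase for SMAD2 and SMAD3, at 0.75 (SE 0.0967), and the proteoglycan Dcn, which can bind TGF-beta, at 0.57 (SE 0.0458). Nedd4l was at 0.37 with the length offset. Of the 46 genes that passed through both groups, 12 were higher and 22 lower. Of 22 further ligands only 5 passed the filter.

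Of 30 known TGF-beta target genes, 29 were tested and 22 called, 8 higher and 14 lower, with a median of -0.23. The shares were 75.9% called, 27.6% higher and 48.3% lower, beside 61.7%, 30.8% and 30.9% of all tested genes. Cdkn2b, a cell cycle inhibitor, was at 304.6, 300.4 and 309 CPM in controls and 95.1, 96.8 and 98.5 CPM after knockdown. The replicates were close to each other in both groups and the groups were far apart (-1.65, SE 0.0468, adjusted p 1.26e-17, edgeR). The chromatin protein Hmga2 was at -1.12 (SE 0.0587). On the other side, Ankrd1, a stress-responsive muscle protein, rose by 0.69 (SE 0.0542), and the collagen genes Col4a1 and Col3a1 rose by 0.67 (SE 0.0420) and 0.47 (SE 0.0400). Other matrix and contractile targets split as well, with Ccn2 at -0.55, Fn1 at -0.32 and Col1a1 at -0.23, all called lower, and Acta2 at 0.33, called higher. These 4 were chosen after their values were seen. Col1a1, Col1a2, Postn, Acta2, Tagln and Cnn1 are also on the fibroblast or smooth muscle marker lists.

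BMP target genes other than the ID genes were mostly at low levels. Of 15, 9 were tested and 6 called, 1 higher and 5 lower, with a median of -0.34. Their 66.7% called was near the 61.7% of all tested genes. By direction, 11.1% were higher and 55.6% lower, beside 30.8% and 30.9% of all tested genes. The cardiac T-box genes Tbx3 and Tbx2 were at -0.56 (SE 0.0964) and -0.34 (SE 0.0896). The lower genes with the largest differences, chosen after their values were seen, were Hey1 (-1.77, SE 0.221), Hey2 (-1.12, SE 0.147) and Msx1 (-1.09, SE 0.151). Hey1 and Hey2 also respond to Notch. The higher gene was Alpl, a phosphatase of mineralizing cells (1.20, SE 0.372), with 10, 5 and 14 counts in controls and 23, 32 and 15 after knockdown. It passed the filter only through the knockdown libraries, where it was high. Of the 8 genes that passed through both groups, 5 were lower (62.5%) and 0 higher.

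**Figure D3:**
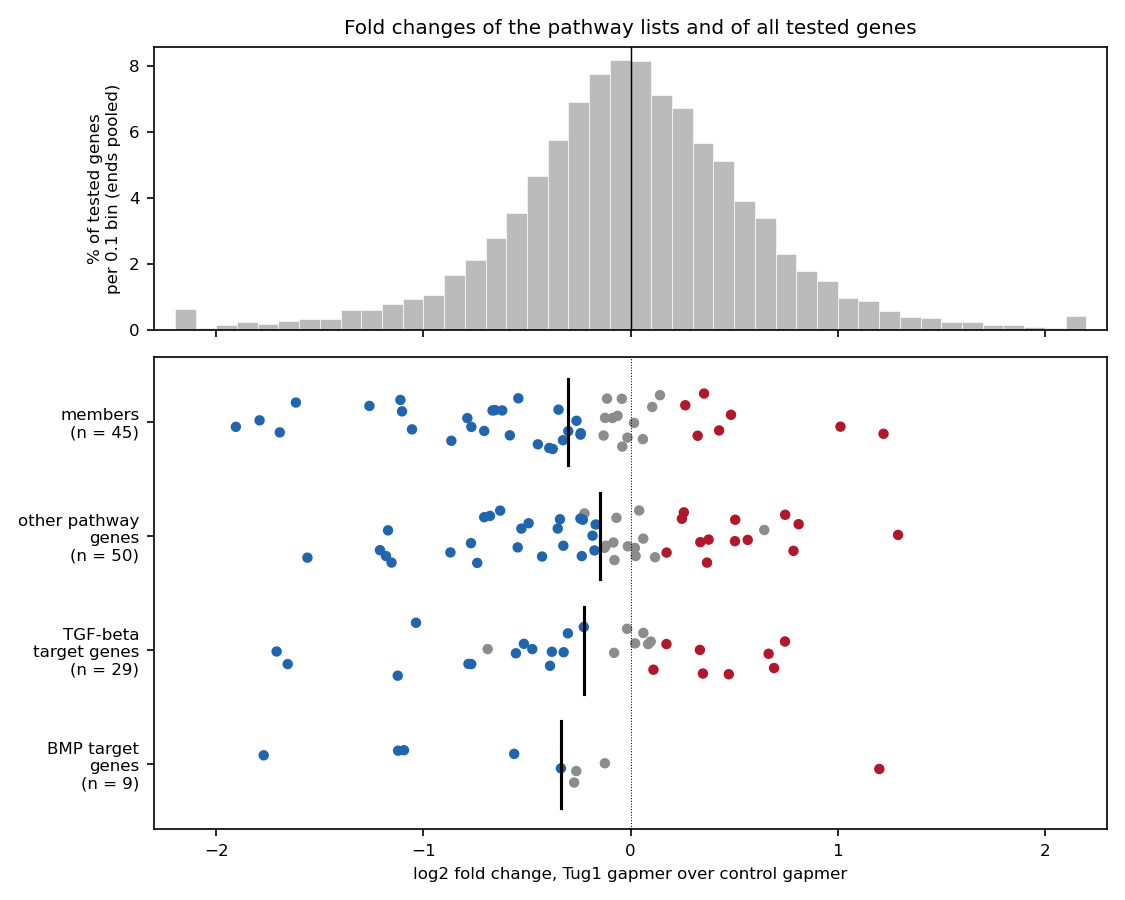
Log2 fold changes, Tug1 gapmer over control gapmer. The upper panel gives the share of all 14216 tested genes per bin of 0.1, with values beyond the axis pooled in the end bins, and the lower panel gives each tested gene of the 4 lists (red called higher, blue called lower, grey not called) with the median as a black line. Every list has its median below 0 and members on both sides of it.

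Fold change moved with gene length in these libraries, over all genes and among the members. Over all tested genes with a span, the median log2 fold change ran from -0.21 in the 10% of genes with the shortest genomic spans to 0.33 in the 10% with the longest. Spearman's rho between log2 fold change and span was 0.269 across 13084 genes, 0.701 across the 45 tested members and 0.666 across the 43 that passed through both groups. These values describe genes measured in the same 6 libraries and carry no test. The 4 ID genes, at the short end, were all lower, as was Nog, which passed the filter only through the control libraries. The 7 members that rose had span percentiles of 80.5 to 98.6. Of the 14 members in that range, 4 were called lower, Bmpr1b, Tgfbr2, Acvr2a and Smurf2, and 3 were not called. With the length offset 35 of the 45 members were called, 5 higher and 30 lower, beside 62.1% of the 13084 genes in that fit, 30.3% higher and 31.8% lower. The median over the members was then -0.41. The offset took rho to 0.004 across all genes, but the members still had a rho of 0.564, or 0.512 across the 43, so their fold changes still moved with span. The part of gene length in the members' results was not tested beyond these values.

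**Figure D4:**
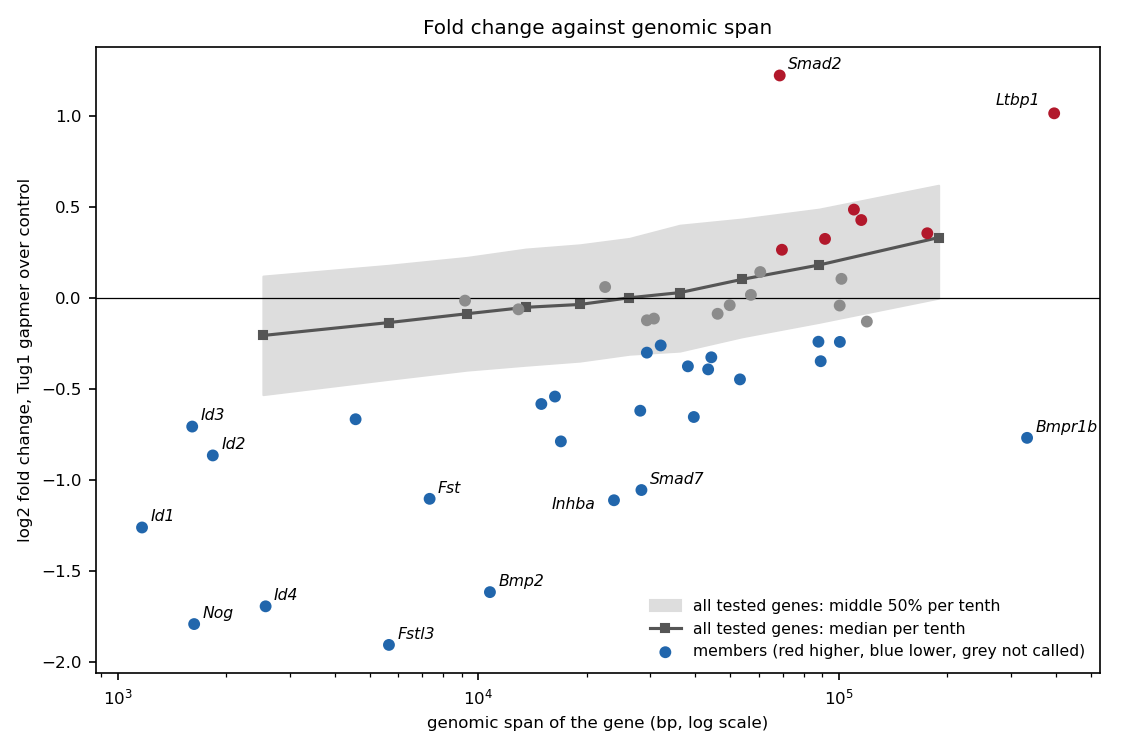
Log2 fold change, Tug1 gapmer over control gapmer, against genomic span on a log axis. Points are the 45 tested members (red called higher, blue called lower, grey not called), squares are medians of all tested genes per decile of span, and the band runs from the lower to the upper quartile of each. The band is drawn between the median spans of the first and last decile, 2526 and 189157 bp. Id4 lies below it at the short end, and Smad2 lies above it. Id1, Id2, Id3 and Nog lie left of the band and lower than its short end. To the right of the band, Ltbp1 lies higher and Bmpr1b lower than its long end.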

How the data were processed

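The deposited file holds whole-number counts per gene for each of the 6 libraries, made by the authors. Whether runs were summed into a library is not given in the sources used here. Per the submitters' processing notes, FastQC 0.11.7, fastp 0.14.1 and STAR 2.5 were used. Counting tool, genome build, annotation and use of strand are not given in the sources used here. The library kit marked strand and selected poly-A RNA, per the labels' protocols. The counts went into edgeR 4.0.16 under R 4.3.3 (expression filter at minimum count 10 and minimum total 15, TMM, two-sided quasi-likelihood test, prior count 0.125, Benjamini-Hochberg over all 14216 tested genes, called under 0.05). SE is the log2 fold change over the root of F, and intervals are 95%. Positive values are higher after knockdown.

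The members and lists were chosen with earlier results of these data known. Full values are given for called members that changed by 1 or more on the log2 scale and, per role, for the member with the largest change and that with the highest level. Other lists are represented by the 3 highest and 3 lowest called genes whose libraries did not overlap and whose mean reached 10 CPM, except where stated. Some genes that these rules name are not reported here. Gene spans and promoter sequences came from RefSeq tables of GRCr8, which matched all 51 members and 41 of them respectively. Transcript lengths were not used, and fold changes compare levels within a gene. Where CPM was summed over markers or ranked between genes, it was not corrected for transcript length. The length offset took out, library by library, a lowess curve (span 0.3) of each gene's log2 difference from its own mean against log2 genomic span. Other alternatives were DESeq2 1.42.0 size factors and Wald test, library totals, limma-voom (limma 3.58.1), other filters, an adjusted p of 0.01, a replicate block and each library left out. In simulated counts for this comparison over 14216 genes, 70 of 100 genes changed by 0.5 on the log2 scale were recovered. For a change of 1 it was 86 of 100, and there were 20 false calls. In the measured counts 61.7% of tested genes were called. Recovery and false calls with so large a share of changed genes were not tested. No 2 libraries of a group agreed within sampling noise (chi-square per degree of freedom 2.16 to 3.56).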

Additional observations from a re-analysis of the deposited data

How the results depend on the processing

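Over the 16 alternatives, 31 of the 45 tested members kept direction and call throughout. Over 720 combinations of member and alternative, 14 were weaker, 14 stronger and 15 reversed. The count of changed members was between 31 and 35, or 31 and 34 with a library left out; Tug1 ran from -2.22 to -2.07 and stayed called. All genes called ran from 7353 to 8987. Same-numbered libraries were not treated as paired in the main fit. Their residuals about the group mean had correlations of -0.00531, 0.0298 and 0.027, and differently numbered ones had -0.0323 to 0.00586. Such values cannot show whether same-numbered libraries were prepared together, which the labels do not say. With the number as a replicate block the count of changed TGF-beta ligands went from 1 to 2, as Tgfb2 passed (0.10, edgeR adjusted p 0.0424). With library totals that count was 3, and with a library left out it was between 1 and 2 (2 without knockdown replicate 2). The changed type I receptors went from 2 to 4 with the length offset, alone or with the replicate block.

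Signs turned only for members without a call. With library totals Ltbp2 was at 0.0106, Chrd at 0.0377 and Smad9 at 0.0128. With the length offset Tgfb2 was at -0.0901, Gdf11 at 0.0001, Tgfbr1 at -0.0938 and Chrd at 0.0751; with the replicate block added they were at -0.0923, 0.0002, -0.0936 and 0.0752. With a library left out, Tgfbr1 was between -0.0332 (without control replicate 2) and 0.05, with -0.0261 without knockdown replicate 3. Smad9 was between -0.1153 and 0.0144 (without knockdown replicate 2), with 0.0021 without control replicate 2. What makes these values move was not tested. Depth limits Fstl3, Nog and the 6 untested members, which hold few counts per library.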
